A study of Mus musculus with 14 samples.

Results

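Acetylated lysine 9 of histone H3 (H3K9ac) marks active promoters, and ChIP-seq (sequencing of DNA bound to chromatin pulled down with an antibody) located it in mouse liver during regeneration. Places where a single acetylated region reached 2 or more genes, called joined regions here, were selected on the deposited peaks themselves: which libraries had a peak, and how wide the merged peaks were. They were found by merging the overlapping peaks of all 12 libraries on mm10 and keeping each merged region that had a peak in all 12, was under 6000 bp wide and lay within 1 kb of an end of at least 2 protein-coding RefSeq genes. There were 1768 joined regions among the 12375 regions with a peak in all 12 libraries and the 57979 merged regions in all. They lay within 1 kb of an end of 3409 protein-coding genes. A gene counts as reached here if its end lies within that window, even where no peak covers the gene. Of the rest with a peak in all 12, 6459 under that width reached 1 gene, 3106 reached none, and 1042 were 6000 bp or wider, 221 of these at 2 or more genes.

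Both groups came from livers of male C57BL6/J mice aged 2 to 3 months, taken 12 h after partial hepatectomy, with 6 libraries titled d22 and 6 titled pbs. The study asked what happens when the fall in blood glucose after this operation is delayed. The titles do not match the treatment labels: d22 libraries carry a label of vehicle at reduced PBS strength, and pbs libraries a label of 22.5% dextrose. Libraries go by their title here, no treatment is assigned to any of them, and every difference is d22 minus pbs. The labels do not say whether each library is a separate animal, so p-values reflect the spread among these libraries, which may be technical. Depth ran from 6343891 to 13084426 tags in d22 and from 6385610 to 13259411 tags in pbs libraries, and the median joined region held 77.0 to 181.0 tags in d22 and 109.0 to 225.0 tags in pbs libraries.

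Mammalian genomes hold many genes that start back to back on opposite strands from a shared, often CpG-rich, stretch of DNA, called a bidirectional promoter. Genes of DNA repair, mitochondria and other functions needed in every cell are known to be arranged in this way often. In other joined regions the start of a gene lies close to the 3' end of its neighbour. H3K9ac typically flanks the start of an active gene on its nucleosomes, with few nucleosomes at the start itself.

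The DNA between and around joined starts is shown first for 4 promoters. Each is the RefSeq window on GRCm38.p6 (the coordinates of mm10) from 250 bases before to 50 bases after a gene's start, written 5' to 3' on the gene's own strand, so that the gene starts at base 251. This start can differ from the outermost annotated end of the gene, from which the distances between starts given further on are counted. Capitals mark matches, on either strand, to 8 short motifs: CCGGAAG (the ETS factor GABPA), GCGCATGC (NRF1), CCAAT (NFY), GGGCGG (the GC box of SP1), AAGATGGCG (YY1), TATAAA (the TATA box), CACGTG (the E-box) and TGACGTCA (the CRE). Sars2, the mitochondrial seryl-tRNA synthetase (chr7:28741718-28742017, plus strand), is a textbook pair with Mrps12, a protein of the mitochondrial ribosome, whose start lies at base 104 of the same window. Eps8l2, an actin regulator related to Eps8 (chr7:141338752-141339051, plus strand), shares its window with the start of the transcription factor gene Deaf1 at base 32. Pigr, which moves IgA across hepatocytes and other epithelia (chr1:130826434-130826733, plus strand), and Ddt, D-dopachrome tautomerase (chr10:75773325-75773624, minus strand), each start beside the 3' end of a neighbour. The last 3 are shown because their regions differed between d22 and pbs.
Sars2: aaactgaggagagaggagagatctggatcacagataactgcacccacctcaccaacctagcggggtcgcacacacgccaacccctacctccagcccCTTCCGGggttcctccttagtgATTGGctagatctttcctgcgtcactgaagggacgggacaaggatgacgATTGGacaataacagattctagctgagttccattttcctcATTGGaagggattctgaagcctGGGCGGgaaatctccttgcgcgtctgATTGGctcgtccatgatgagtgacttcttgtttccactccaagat
Eps8l2: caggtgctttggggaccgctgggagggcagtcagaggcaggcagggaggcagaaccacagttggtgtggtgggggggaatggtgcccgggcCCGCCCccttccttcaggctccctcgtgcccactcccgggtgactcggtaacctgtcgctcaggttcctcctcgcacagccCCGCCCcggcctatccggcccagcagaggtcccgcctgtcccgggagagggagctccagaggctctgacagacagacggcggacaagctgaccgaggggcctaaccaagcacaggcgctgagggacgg
Pigr: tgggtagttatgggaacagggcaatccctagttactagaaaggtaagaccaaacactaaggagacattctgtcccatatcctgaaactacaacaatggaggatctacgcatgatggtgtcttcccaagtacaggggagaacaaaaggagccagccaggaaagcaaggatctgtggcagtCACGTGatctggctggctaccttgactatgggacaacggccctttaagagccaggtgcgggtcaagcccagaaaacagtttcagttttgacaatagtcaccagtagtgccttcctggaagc
Ddt: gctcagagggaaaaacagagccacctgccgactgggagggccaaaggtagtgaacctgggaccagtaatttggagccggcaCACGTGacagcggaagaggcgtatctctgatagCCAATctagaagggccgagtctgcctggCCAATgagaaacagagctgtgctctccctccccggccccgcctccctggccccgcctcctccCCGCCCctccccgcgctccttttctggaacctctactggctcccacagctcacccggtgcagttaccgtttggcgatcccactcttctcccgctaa
The window of Sars2 held 1 GABPA match, 4 CCAAT boxes and 1 GC box. That of Eps8l2 held 2 GC boxes, that of Ddt an E-box, 2 CCAAT boxes and a GC box, and that of Pigr an E-box alone. The windows of Zmynd12 and Thtpa, at 2 further regions described below, held none of the 8 motifs.

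Over all promoters in the RefSeq table that lay at joined regions (2723 windows of 2297 genes), CCGGAAG was found in 28.2%, against 19.4% of 5630 windows at regions with 1 gene and 11.6% of all 21263 protein-coding windows. AAGATGGCG was found in 4.66% of windows at joined regions, 3.41% of those at regions with 1 gene and 1.83% of all. Both shares were therefore higher over all joined regions than at regions with 1 gene, but not in every arrangement. AAGATGGCG was in 5.45% of windows where 2 starts on opposite strands were joined. It was in 2.80% of 429 windows where a start was joined to an end on the same strand. For CCGGAAG these shares were 28.2% and 27.3%. CCAAT differed little, with 38.8% at joined regions, 38.4% at regions with 1 gene and 38.2% of all windows. The remaining motifs were no more frequent at joined regions than at regions with 1 gene. GGGCGG was in 66.7% and 68.4% of windows, GCGCATGC in 6.17% and 6.45%, CACGTG in 10.9% and 11.0%, and TGACGTCA in 3.38% and 3.57%. TATAAA was in 4.66% of windows at joined regions, against 6.48% at regions with 1 gene and 12.6% of all windows. By the same 2 arrangements it was in 3.67% and 6.29%. Median GC content was 62.0% at joined regions and 61.7% at regions with 1 gene, and the median ratio of observed to expected CpG was 0.83 and 0.79, with 0.57 over all windows. By the same 2 arrangements the CpG ratio was 0.85 and 0.77. These are descriptions with no test, since windows of paired genes share bases and a letter match is not a bound site.

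Strand was given by the promoter table for 2848 of the 3409 genes (83.5%). Of the joined regions, 1654 reached 2 genes, 107 reached 3, 6 reached 4 and 1 reached 5, and 1373 held ends of at least 2 genes inside the region itself. Among the 1236 regions with 2 genes of known strand, 778 (62.9%) joined 2 starts on opposite strands, head to head. A further 365 joined a start to the end of a gene on the same strand, 46 a start to an end on opposite strands, 34 had 2 starts on the same strand and 13 joined 2 ends. By their outermost annotated positions, the head-to-head starts had a median signed distance of 37 bp, with overlapping pairs counted as negative. Of the 778 pairs 288 overlapped there, and the starts of the other 490 were a median of 102 bp apart. Rprd1b and Tti1 (a regulator of RNA polymerase II and a partner of PIKK kinases) and Kctd21 and Usp35 (a ubiquitin ligase adaptor and a deubiquitinase) had a distance of 0 bp, and Smpd2 and Ppil6 (a sphingomyelinase and a cyclophilin-like protein) of 1 bp.

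At head-to-head pairs the strongest acetylation lay inside a gene, and which gene it was varied from pair to pair. In 490 pairs whose starts did not overlap, the summit of the peak with the most tags was located in each of the 12 libraries (5880 summits). Of these, 45.4% lay in the gene on the minus strand, 51.9% in the gene on the plus strand, and 2.72% between the starts, with 2.04% to 3.67% between them in single libraries. The median summit inside a gene was 276 bp from that gene's start. The stretch between the starts was itself a median of 3.57% of the region. With starts 301 to 1000 bp apart (66 pairs) that stretch was 12.8% of the region and held 11.4% of summits. With starts over 1000 bp apart (26 pairs) it was 55.9% of the region and held 9.29% of summits. By the starts of the promoter table instead, 689 pairs did not overlap, with a median of 185 bp between starts. That stretch was then a median of 6.41% of the region and held 5.19% of summits (4.50% to 6.10% in single libraries).

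The favoured side was stable across libraries in many pairs. In 242 of the 490 pairs (49.4%) the summit lay in the same gene in all 12 libraries, and in 356 (72.7%) it did so in at least 10. No pair had all d22 summits in a gene and all pbs summits in its partner. At 4864 regions with a single gene start and no other gene end, 91.0% of summits lay on the transcribed side, a median of 378 bp from the start, and 79.3% of those regions had their summit on the same side in all 12 libraries.

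**Figure D1:**
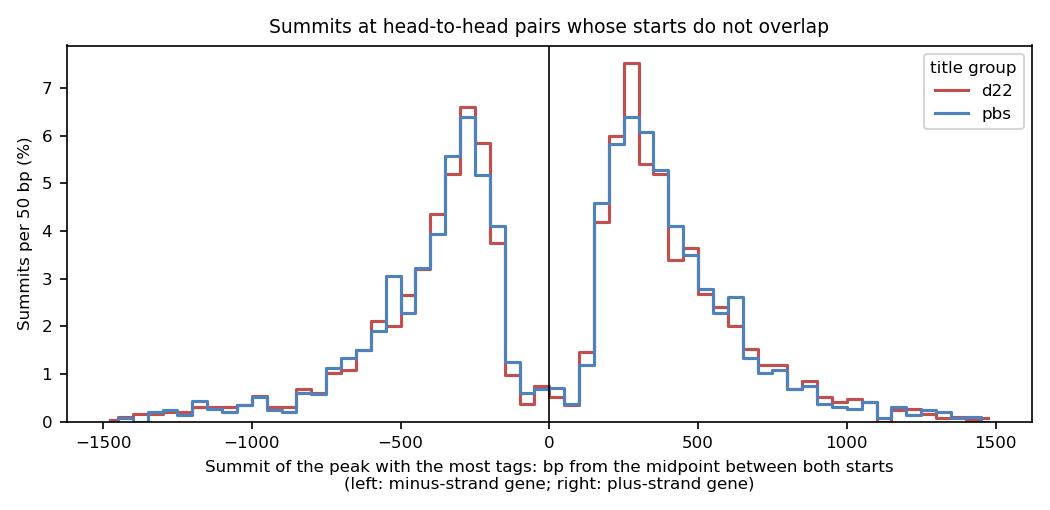
Position of the summit of the peak with the most tags relative to the midpoint between both starts (bp), as percent of summits per 50 bp, in 490 head-to-head pairs and 6 libraries per line, with d22 in red and pbs in blue. Both lines have a peak on each side of the midpoint and a low point between the starts, where 2.72% of all summits lay.

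Of 7 textbook pairs with summits placed in this way, 2 had all 12 in the same gene. All 12 summits lay in Trp53, the tumour suppressor p53, and none in its antisense partner Wrap53. At Pdcd10 and Serpini1 (a vascular signalling protein and neuroserpin, with starts 641 bp apart) all 12 lay in Pdcd10. Tap1, the peptide transporter for antigen presentation, held 11 summits and Psmb9, an immunoproteasome subunit, 1. Npat, a histone gene coactivator, held 10 and the DNA damage kinase Atm 2. Other pairs were mixed: Hadha and Hadhb, the subunits of the mitochondrial trifunctional protein of fat oxidation, held 5 and 7, Mrps12 and Sars2 held 8 and 4, and the deacetylase gene Sirt3 and the proteasome gene Psmd13 held 7 and 5. Of the 23 pairs listed, 16 were joined regions. A further 5 shared a region of 6000 bp or more (Hspd1/Hspe1, Paics/Ppat, Brca1/Nbr1, Khk/Emilin1 and Derl2/Mis12), and 2 shared no region in all 12 libraries (Acadvl/Dlg4 and Abcg5/Abcg8). Of the 23, 5 pairs were listed because an earlier analysis of these libraries had named them.

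Joined regions were on average somewhat more densely acetylated than regions at 1 gene. Level is given as CPM (tag counts scaled by edgeR to the tags in all tested regions) per kb of called peak, which allows for the different length of regions. The median over joined regions was 31.5 to 40.4 CPM per kb in d22 and 31.9 to 41.5 in pbs libraries. Within a library it was 1.05 to 1.11 times the median of regions with 1 gene in d22 and 1.09 to 1.11 times in pbs, so the ratio was above 1 in all 12. Over all libraries the median was 40.7 with 3 or more genes and 37.5 head to head. It was 33.7 where a start met an end on the same strand and 29.1 with 2 ends, against 33.4 with 1 gene. At matched CPM, joined regions and regions with 1 gene differed little: 30.9 and 30.8 at 32 to 64 CPM, and 39.0 and 38.3 at 64 to 128 CPM. Joined regions held 14.6% to 15.5% of tested tags in d22 and 15.04% to 15.5% in pbs libraries. Their median merged width was 2950.5 bp, against 2568 bp for regions with 1 gene.

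The densest joined region lay at Gabarap and Phf23 (an autophagy protein of the Atg8 family and a PHD finger protein), with 121 ± 36.2 CPM per kb (SD, n = 12 libraries). Dctn2 and Kif5a (a dynactin subunit and a kinesin) followed with 72.1 ± 18.7, then the histone genes H3c15 and H2ac19 with 72.0 ± 17.8, which belong to a multicopy family whose reads can be shared between copies. Mrpl54/Apba3 had 68.8 ± 12.9, Pmel/Rab5b 67.0 ± 18.4 and Mief1/Atf4 66.0 ± 12.1, and these 5 did not differ beyond their spread. At the low end, Ecm1/Tars2 had 16.4 ± 1.81, Myo7a/Capn5 16.9 ± 2.79 and Slx1b/Sult1a1 16.9 ± 3.67. The membership limits fell between close neighbours. Elf1/Wbp4 (5986 bp wide) and Iffo1/Gapdh/Ncapd2 (5983 bp) were just inside the width limit, with 38.6 and 52.4 CPM per kb. Gdap2/Wdr3 (6018 bp) and Alg12/Creld2 (6041 bp) were just outside it, with 41.5 and 52.0. Fbxo46/Bhmg1 was inside the window at 999 bp from its second gene, with 62.7 CPM per kb, and Esam/Msantd2 was outside it at 1006 bp, with 18.9.

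Which genes lay at joined regions differed by function. Of all 10329 protein-coding genes with a region in all 12 libraries, 3409 (33.0%) sat at a joined one. The share was 54.2% for proteins of the mitochondrial ribosome (39 of 72), 53.5% for the respiratory chain (46 of 86), 51.4% for DNA repair (36 of 70), 47.2% for aminoacyl-tRNA synthetases (17 of 36) and 43.3% for splicing (29 of 67). Histone genes had 72.9% (35 of 48), and they lie in clusters of short genes. The share was 35.1% for the cytosolic ribosome, 36.5% for chaperones, 34.9% for the proteasome and 33.3% for translation initiation. It was 8.89% for the urea cycle and amino acids (4 of 45), 14.6% for sugar and glycogen metabolism (7 of 48), 16.5% for lipid metabolism (14 of 85), 17.7% for ubiquitin conjugation and degradation at the endoplasmic reticulum (14 of 79), 20.7% for zinc finger proteins (73 of 353) and 26.5% for cell cycle and replication (18 of 68). None of 12 hepatocyte markers sat at a joined region. The rule selected regions under 6000 bp, which leaves out the broad domains of some strongly acetylated genes, and the shares were not tested.

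**Figure D2:**
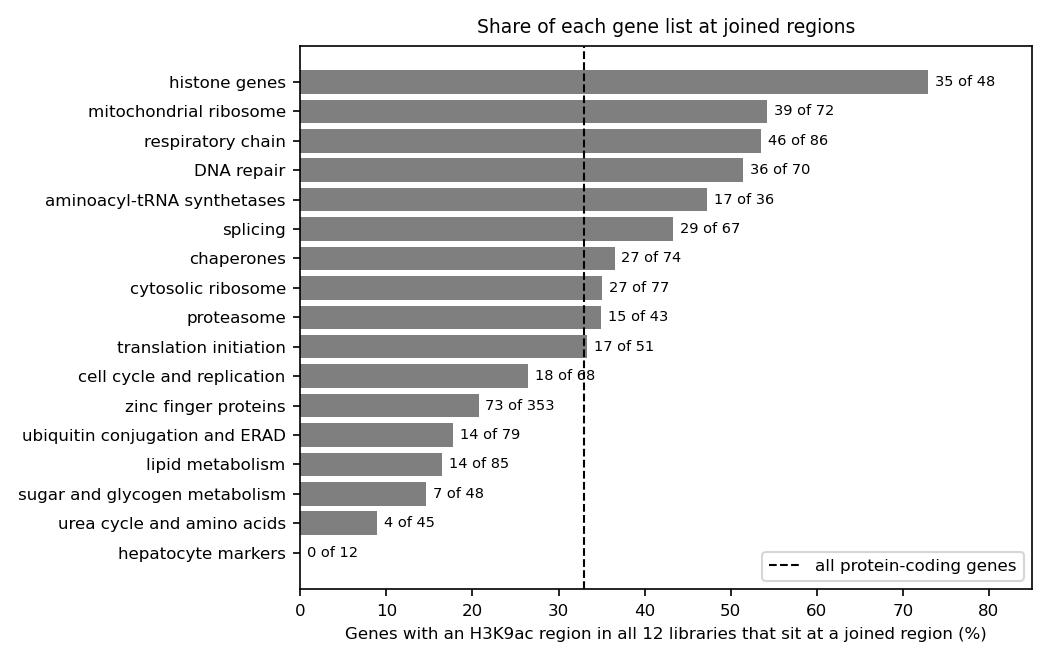
Share of the genes of each list with an H3K9ac region in all 12 libraries that sit at a joined region, in percent, with the counts beside each bar. The dashed line is the share over all protein-coding genes, 33.0%, and the mitochondrial ribosome (54.2%) and the urea cycle list (8.89%) lie on opposite sides of it.

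Between d22 and pbs, few joined regions differed. With edgeR's quasi-likelihood test and Benjamini-Hochberg adjustment over all 12375 regions, 8 of 1768 joined regions passed at 0.05, against 1.01% of all regions tested, with 2 higher and 6 lower in d22. Over all regions 0.453% were higher and 0.558% lower. The share of joined regions was 0.452%, beside 0.573% of regions with 1 gene, 1.45% of regions at no gene and 3.36% of wide regions. The groups' CPM did not overlap at 5 joined regions higher and 10 lower in d22 (0.848%), against 1.33% of all regions tested (0.59% higher and 0.743% lower). At an unadjusted p under 0.05, 54 joined regions were higher and 92 lower (8.26%), against 10.9% of all (5.07% higher and 5.83% lower). DESeq2 passed 23 (6 higher, 17 lower), where 2.2% of all regions passed, and scaling by library totals alone passed 47 (1 higher, 46 lower), where 3.67% of all passed. That scaling moved the median of all regions by -0.22 on the log2 scale, and the median of joined regions relative to it was -0.0088. Other alternatives are set beside their own backgrounds. On tags per kb of called peak 1 joined region passed, where 0.0323% of all regions did. The authors' fold enrichment passed 435 (23 higher, 412 lower), where 20.1% of all passed. Its median log2 change was -0.33 over joined regions and -0.30 over all regions. With the replicate number as a block 9 passed (1.03% of all), with libraries of 49 bp tags only (without pbs 1, 4 and 6, whose tags were 48 bp) 3, all higher (0.315%), with at least 50 tags in every library 7 (1.47% of those tested), with stricter peaks 6 (0.878%) and on merging peaks up to 100 bp apart 8 (0.996%).

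The changes at joined regions were also small. The median log2 change was -0.0029, with 870 regions above 0 and 898 below, and 0.0032 over all regions tested. Its size had a median of 0.0935, against 0.107 at regions with 1 gene and 0.171 at regions with no gene. Over these classes the spread within a group moved with it. The median standard deviation of log2 CPM was 0.200 at joined regions, 0.229 at regions with 1 gene and 0.380 at regions with no gene. Median CPM was 78.6, 61.2 and 36.3. Wide regions did not follow this order, with a larger size than joined regions (0.132) but a spread of 0.190 and a median of 210 CPM. At matched levels of 64 to 128 CPM, the size of the change was 0.0799 at 789 joined regions and 0.0947 at 2413 regions with 1 gene, and the spread 0.182 and 0.187. Other levels had smaller gaps, and the order was not the same in all. The size was 0.143 and 0.150 at 16 to 32 CPM, 0.112 and 0.111 at 32 to 64 CPM, and 0.0830 and 0.0885 at 128 to 256 CPM. In bulk tissue, fewer cells with the mark and less mark per cell cannot be told apart.

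**Figure D3:**
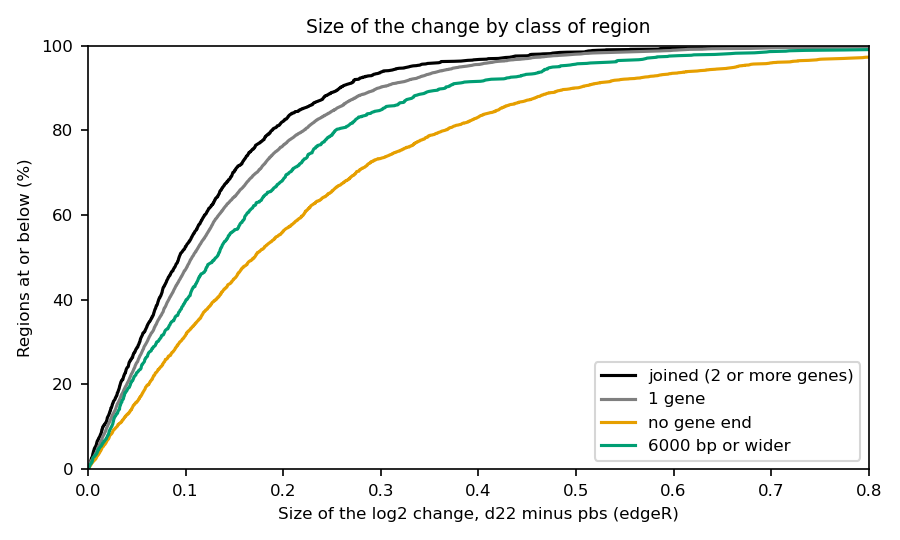
Share of regions (percent) at or below each size of the log2 change, d22 minus pbs, for joined regions, regions with 1 gene, regions with no gene end and regions of 6000 bp or more. The line of joined regions lies leftmost, with a median of 0.0935, and that of regions with no gene lies rightmost, with 0.171.

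The largest rise was at Aff4 and Leap2 (chr11:53420894-53424161), where Leap2 encodes a liver-secreted antagonist of the ghrelin receptor and Aff4 the scaffold of the super elongation complex. It had 60.6 CPM at the lowest, 93.5 at the median and 108.5 at the highest in d22 libraries, against 29.8, 45.5 and 50.5 CPM in pbs libraries. All d22 libraries were above all pbs libraries. The log2 change was 1.09 ± 0.15 (SE; edgeR adjusted p = 0.0013). The acetylation began upstream of the 3' end of Aff4 and ran on across Leap2. Its right edge lay 817 bp farther out in d22 by the medians, and a separate peak beyond Leap2 was called in d22 2, 4, 5 and 6 and in pbs 4. This was the only joined region that also passed on tags per kb of called peak, with a log2 change of 0.74 (limma adjusted p = 0.0257).

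The other rise was at Zdhhc4, a palmitoyltransferase family gene, and E130309D02Rik (chr5:143312904-143318205). The lowest, median and highest values were 77.2, 87.8 and 99.1 CPM in d22 libraries, against 43.3, 51.1 and 66.1 CPM in pbs libraries. The groups did not overlap, and the log2 change was 0.71 ± 0.12 (edgeR adjusted p = 0.0079). Called peaks covered 3505.7 ± 687.8 bp in d22 and 2272.0 ± 872.4 bp in pbs (SD, n = 6 each), while CPM per kb was 25.4 ± 3.18 in d22 and 25.1 ± 5.86 in pbs. The left edge of the peaks was 839 bp farther out in d22 by the medians, and the right edge, where the groups overlapped, 339 bp farther out. It did not pass with library totals (log2 0.47, adjusted p = 0.122), or with stricter peaks (log2 0.45, adjusted p = 0.306).

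Of the falls, the largest was at Pigr and Fcamr, a receptor for the Fc part of IgA and IgM (chr1:130826448-130830239). It had 14.2, 29.3 and 41.0 CPM in d22 libraries at the lowest, median and highest, against 47.3, 60.02 and 103.8 CPM in pbs libraries. The groups did not overlap, and the log2 change was -1.17 ± 0.21 (edgeR adjusted p = 0.0098). The annotated 3' end of Fcamr (130825903) lay outside the region, within 1 kb of it. In d22 libraries peaks covered 1519.8 ± 438.4 bp, against 2880.0 ± 446.9 bp in pbs libraries. In all pbs libraries peaks covered both the start of Pigr and DNA over 2000 bp into the gene, in pbs 2 as a single peak. In d22, replicates 1, 3 and 6 had no peak in that inner part and replicate 4 had none at the start. With 49 bp tags only the region did not pass (log2 -1.26, adjusted p = 0.0699), and with stricter peaks it was not tested, since 11 of the 12 libraries had such a peak there. Tags per kb of called peak differed by -0.23 on the log2 scale, which did not pass (limma adjusted p = 0.867).

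At Rarres2, which encodes the adipokine chemerin, and Lrrc61 (chr6:48568582-48573674), d22 libraries had 38.4, 59.4 and 73.3 CPM, against 85.8, 97.2 and 109.4 CPM in pbs libraries. The groups did not overlap, and the log2 change was -0.73 ± 0.13 (edgeR adjusted p = 0.0098). By the medians, the left edge lay 1665.5 bp farther in and the right edge 700.5 bp farther in for d22, but the groups overlapped at both. The left edge ran from 48568728 to 48571418 in d22 and from 48568582 to 48570862 in pbs libraries. The right edge ran from 48572821 to 48573475 in d22 and from 48572822 to 48573674 in pbs libraries. With 49 bp tags only the region did not pass (log2 -0.68, adjusted p = 0.138).

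At Deaf1 and Eps8l2 (chr7:141338392-141342391), head to head with outermost starts 42 bp apart, d22 libraries had 65.1, 88.4 and 92.1 CPM, against 111.8, 126.4 and 137.6 CPM in pbs libraries. Again the groups did not overlap, with a log2 change of -0.59 ± 0.10 (edgeR adjusted p = 0.0074). The summit lay in Eps8l2 in all 12 libraries. By the medians, the right edge, inside Eps8l2, lay 534.5 bp farther in for d22, while the left edge on the Deaf1 side moved by 61.0 bp. The groups overlapped at both edges. In d22 3 and 4 the peak at the start was the only one, whereas in all pbs libraries peaks reached farther into Eps8l2. The printed window of Eps8l2 covers the start of both genes. With 49 bp tags only the region did not pass (log2 -0.63, adjusted p = 0.062).

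**Figure D4:**
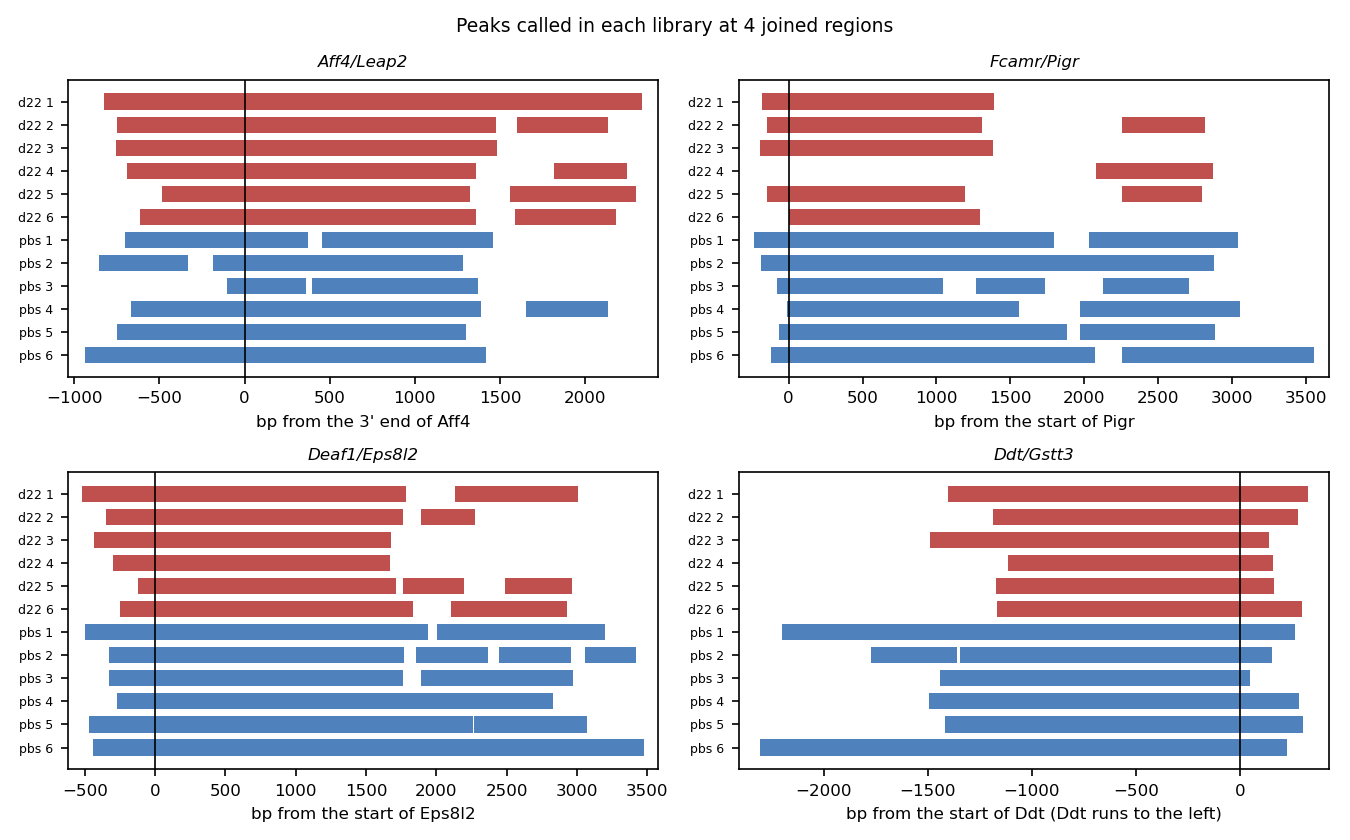
Peaks called in each library (bars) at 4 joined regions, as distance in bp from a gene end, with the 6 d22 libraries in red above the 6 pbs libraries in blue. By the medians of the outer edges, peaks reached farther right in d22 at Aff4/Leap2 (d22 3 and pbs 4 are exceptions) and less far into Pigr, Eps8l2 and Ddt. The ranges of these edges overlapped between the groups at all 4 regions.

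The 3 smaller falls were at Ddt and the glutathione transferase gene Gstt3, at Thtpa and Ap1g2 (thiamine triphosphatase and an adaptor subunit of vesicle coats), and at Ppcs and Zmynd12 (a coenzyme A synthesis enzyme and a MYND zinc finger protein). Ddt/Gstt3 (chr10:75771068-75773700) had 58.8, 71.0 and 99.4 CPM in d22 libraries, against 95.4, 111.0 and 121.4 CPM in pbs libraries, and the groups overlapped, since d22 5 was above pbs 2. Its log2 change was -0.53 ± 0.11 (edgeR adjusted p = 0.0285). The annotated 3' end of Gstt3 (75774117) lay outside the region, within 1 kb of it. Thtpa/Ap1g2 (chr14:55094071-55098206) had 55.0, 68.3 and 84.4 CPM in d22 libraries, against 89.5, 100.7 and 117.3 CPM in pbs libraries, with no overlap. Its log2 change was -0.53 ± 0.11 (edgeR adjusted p = 0.0348). The annotated 3' end of Ap1g2 (55098835) also lay outside its region, within 1 kb of it. Ppcs/Zmynd12 (chr4:119420914-119424377), head to head with starts 171 bp apart, had 86.3, 92.5 and 102.6 CPM in d22 libraries, against 108.0, 123.2 and 132.3 CPM in pbs libraries, with no overlap. Its log2 change was -0.36 ± 0.08 (edgeR adjusted p = 0.0441), and all 12 summits lay in Ppcs. On leaving out single libraries these 3 lost their calls while the changes stayed of like size. Ppcs/Zmynd12 lost its call without any of the 12 (log2 -0.39 to -0.33, adjusted p up to 0.111). Thtpa/Ap1g2 lost it without d22 2, 5 or 6 or pbs 1, 2, 3, 5 or 6 (log2 -0.59 to -0.48 over all 12, adjusted p up to 0.0882), and Ddt/Gstt3 without d22 1, 2 or 6 or pbs 1, 3, 4 or 5 (log2 -0.63 to -0.48 over all 12, adjusted p up to 0.0769). With 49 bp tags only they did not pass either (adjusted p = 0.206, 0.189 and 0.202). The other 5 regions kept their calls on leaving out each library.

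At all 8 regions the called length changed in the direction of the tags, longer in d22 at 2 and shorter at 6. On tags per kb of called peak, 7 of them were between -0.23 and 0.04 on the log2 scale, where the median of all regions was 0.08. Since tags outside a called peak are not in the files, a broader mark and a stronger mark that crosses the caller's threshold farther out cannot be told apart. All libraries of a title group were called against the same pooled input, so its part cannot be told apart from the group either. Fold enrichment over local background, the authors' own value, ran the other way at Ppcs/Zmynd12: it was 32.6 to 53.3 in d22 and 15.1 to 31.1 in pbs libraries.

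**Figure D5:**
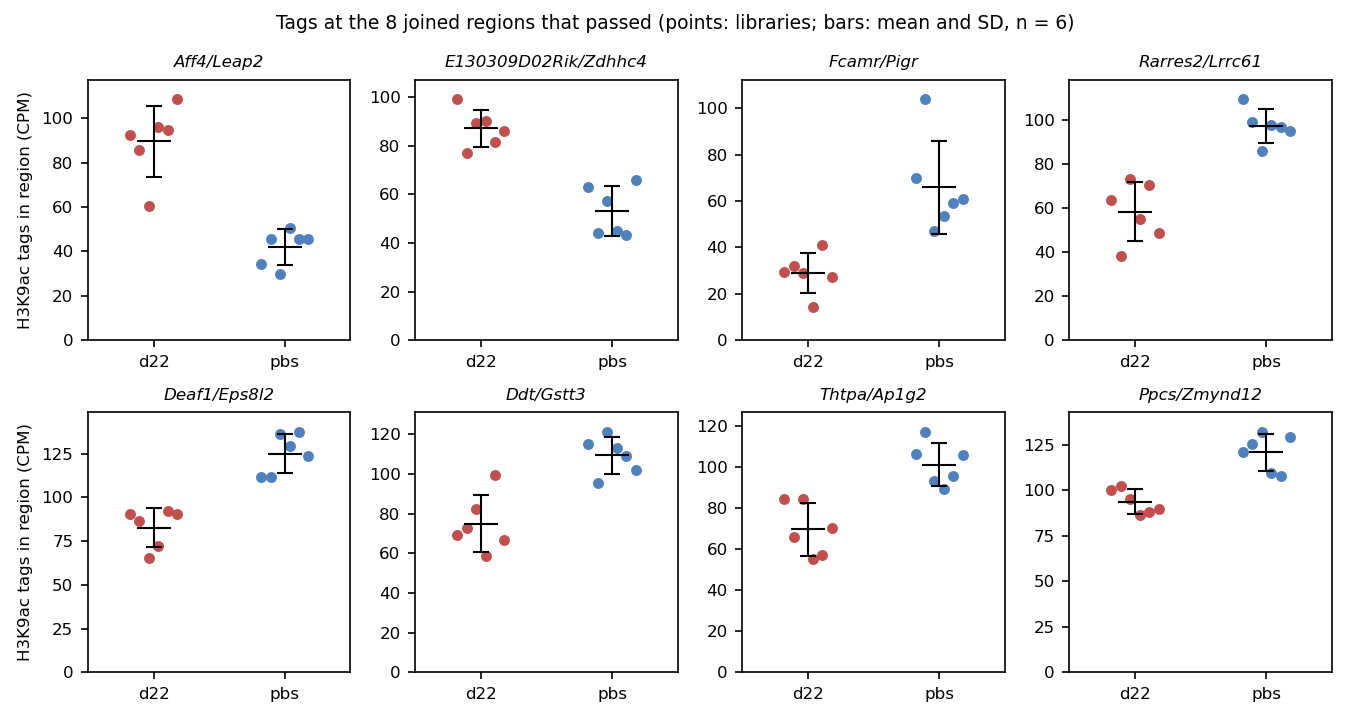
Tags (CPM) in each library at the 8 joined regions that passed, with d22 left of pbs, points for libraries and bars for mean and SD (n = 6). The groups overlap at Ddt/Gstt3 and at no other of the 8.

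By function, no list of joined regions had a member that passed in edgeR, where 1.01% of all regions did, and DESeq2, which passed 2.2% of all, passed 4: Uqcr10/Zmat5 and Hgs/Mrpl12 (adjusted p = 0.028 each), Tpi1/Spsb2/Usp5 (0.0334) and Cdt1/Aprt/Galns (0.0389), all lower in d22. The 49 regions of respiratory chain genes had a median log2 change of -0.07 (14 above 0 and 35 below), against 0.0032 over all regions, and at an unadjusted p under 0.05 none was higher and 5 were lower, where 5.07% of all regions were higher and 5.83% lower. Uqcr10/Zmat5, with a subunit of complex III, had 99.6 ± 20.5 CPM in d22 and 135.6 ± 9.34 CPM in pbs libraries without overlap, a log2 change of -0.42 ± 0.12 and an edgeR adjusted p of 0.112. Sdhd/Timm8b/Nkapd1, with a subunit of complex II, had 134.1 ± 14.5 CPM in d22 and 167.2 ± 22.7 CPM in pbs libraries (adjusted p = 0.183). The 43 regions of the mitochondrial ribosome had a median of -0.03, with 2 higher and 3 lower at an unadjusted p under 0.05, near those shares of all regions. Mrpl12 lay at 2 adjoining regions, Hgs/Mrpl12 and Mrpl12/Slc25a10, with log2 changes of -0.29 ± 0.08 and -0.24 ± 0.08 (edgeR adjusted p = 0.12 and 0.232).

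Cell cycle and replication genes (20 regions) had a median of -0.09, with none higher and 4 lower at an unadjusted p under 0.05 (all regions: 5.07% higher, 5.83% lower). Cdt1/Aprt/Galns, with a licensing factor of DNA replication, had 67.9 ± 8.94 CPM in d22 and 90.7 ± 12.3 CPM in pbs libraries, a log2 change of -0.42 ± 0.11 and an edgeR adjusted p of 0.0922. Ap4m1/Mcm7, with a subunit of the replicative helicase, had 71.7 ± 5.42 CPM in d22 and 88.6 ± 9.90 CPM in pbs libraries (adjusted p = 0.212). Neither passed. The 8 regions of sugar and glycogen genes had a median of -0.10, with none higher and 3 lower at an unadjusted p under 0.05, where 5.07% of all regions were higher and 5.83% lower. Tpi1/Spsb2/Usp5, with the glycolytic enzyme triosephosphate isomerase, had 120.3 ± 12.7 CPM in d22 and 149.8 ± 13.1 CPM in pbs libraries without overlap, a log2 change of -0.31 ± 0.09 and an edgeR adjusted p of 0.126. The region of Gapdh, a later step of glycolysis, had 233.5 ± 21.8 CPM in d22 and 265.5 ± 14.4 CPM in pbs libraries (adjusted p = 0.401).

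The 14 regions of lipid genes had a median of -0.08, with 3 above 0 and 11 below. Hadha/Hadhb had 175.9 ± 22.8 CPM in d22 and 206.2 ± 15.8 CPM in pbs libraries (edgeR adjusted p = 0.35), and Myd88/Acaa1a, which joins an adaptor of innate immune receptors to a peroxisomal thiolase, 150.3 ± 19.0 and 180.2 ± 20.2 CPM (adjusted p = 0.292). The 20 regions of histone genes had a median of -0.09, with 2 lower at an unadjusted p under 0.05 (5.83% of all regions). The 4 regions of the urea cycle and amino acids had a median of -0.16, with none under 0.05. DNA repair (37 regions) had a median of -0.01, splicing (31) -0.01, translation initiation (18) -0.04, the proteasome (18) -0.04, zinc finger proteins (62) -0.02, ubiquitin conjugation (17) -0.01, chaperones (30) 0.0045, tRNA synthetases (19) 0.02 and the cytosolic ribosome (32) -0.00016. At an unadjusted p under 0.05, lower and higher regions numbered 3 and 0 in DNA repair, 3 and 1 in splicing, and 3 and 0 in ubiquitin conjugation. They numbered 2 and 0 in translation initiation, 2 and 0 in chaperones, 1 and 1 in zinc finger proteins, and 0 and 1 in the cytosolic ribosome. The proteasome and tRNA synthetases had 0 of either (all regions: 5.83% lower, 5.07% higher). Tpi1/Spsb2/Usp5 counts in both the ubiquitin and sugar lists. Trappc4/Rps25/Ccdc84 had 178.3 ± 17.8 CPM in d22 and 149.2 ± 14.9 CPM in pbs libraries (adjusted p = 0.246).

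Cell type markers bear on these comparisons as far as the mark shows them. All 12 hepatocyte markers, among them Alb, Ttr and Apoa1, had a region in all 12 libraries, with a summed level of 3018 to 3562 CPM in d22 and 3490 to 3946 CPM in pbs libraries. Of 33 markers of other liver cells, 28 had no region in all 12 libraries, among them Adgre1, Clec4f, Stab2, Lrat, Krt19, Ptprc and Hba-a1. The 5 that had one (Cd68, Cd79a, Oit3, Pecam1 and Sox9) summed to 321 to 584 CPM in d22 and 310 to 344 CPM in pbs libraries. No marker region passed in edgeR, and at an unadjusted p under 0.05, where 5.83% of all regions were lower, 5 of the 12 hepatocyte regions were lower and none was higher, with none of the others in either direction. The median log2 change was -0.16 over hepatocyte markers and 0.30 over the others. Their part in the results above was not tested.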

How the data were processed

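H3K9ac ChIP-seq libraries (6 titled d22, 6 titled pbs) are represented by the peak lists that the authors deposited. The pooled inputs were not analysed here. Per the submitters' processing notes, CASAVA 1.8, Novoalign, MACS 1.4.2 and build mm10 were used. Per the file headers, each library was called alone at a p-value cutoff of 1e-05 against a pooled input (12526421 tags for all d22 libraries, 10409931 tags for all pbs libraries), with tags of 48 bp in pbs 1, 4 and 6 and 49 bp elsewhere. Per the file headers, the deposited columns are the raw count of tags per peak, a score (-10 times log10 of p), a ratio of fold enrichment and a false discovery rate in percent.

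Peaks overlapping by at least 1 bp were merged, and tags were summed over all peaks a library had in a region. No filter on low counts was used: all 1768 joined regions were tested, with 8 to 848 tags in a library. The counts went into the robust quasi-likelihood test of edgeR 4.0.16 (R 4.3.3; TMM scaling, no covariate, adjusted over 12375 regions). A standard error is the log2 change over the root of F. DESeq2 1.42.0 and limma 3.58.1 (pseudocount of 0.5 tags) served for alternatives. No libraries were duplicates. Replicate numbers are the titles' own and are not said to pair libraries. CPM are precise to counting error and library spread, which the tests include.

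Gene ends and names came from RefSeq on GRCm38.p6 (mm10 coordinates), with strand from its promoter table, which has no entry for some genes. Named regions are all that passed, the densest, sparsest and widest, those with the most genes or closest starts, textbook pairs, and those of smallest p in each of 16 lists. Members, lists and motifs were chosen with earlier results of these data known, so no list supports itself. Values of 1 listed pair are not reported here.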

Additional observations from a re-analysis of the deposited data

How the results depend on the processing

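The number of joined regions was 1571 to 2146 under other windows (500 bp, 2 kb), 1989 with no width limit, 1817 with peaks in at least 11 libraries, 1647 with stricter peaks (score of at least 100) and 1722 on merging peaks up to 100 bp apart. The 8 calls became 47 with library totals (1 higher, 46 lower), 23 with DESeq2 (which kept all 8), 1 on tags per kb of called peak, 435 on fold enrichment (23 higher, 412 lower) and 3 in libraries with 49 bp tags (3 higher, 0 lower, 2 of them among the 8), an alternative chosen after seeing the data. Among the 2599 regions where each library had exactly 1 peak 0 passed in edgeR (an unadjusted p under 0.05 was found in 17 of 361 joined regions, 4.71%, and in 7.08% of all 2599), and none of the 8 was tested there. The last 2 settings had fewer samples or fewer regions, and the cause of these differences was not tested. They were 5 to 9 on leaving out each library, with 5 without d22 2, d22 6, pbs 3 or pbs 5. The median change became -0.23 with library totals (-0.22 over all regions) and 0.070 on tags per kb (0.08 over all). On fold enrichment it was -0.33 (-0.30 over all), so values below 0 were common to all regions there. On fold enrichment the direction reversed at Ppcs/Zmynd12 (0.89), and the cause was not tested. Zdhhc4/E130309D02Rik was just below 0 on that measure (-0.041), but above its median over all regions. With the replicate number as a block 9 passed (3 higher, 6 lower), 7 of them among the 8, and Ppcs/Zmynd12 had an adjusted p of 0.0647. Same-numbered libraries correlated at -0.0060 to 0.16 in their deviations, and 1 of the 6 numbers matched best with its own, so the numbers are not taken as pairs. With stricter peaks 6 passed, among them Emilin1/Khk, then under 6000 bp. On merging up to 100 bp apart 8 passed, with Pop1/Rida in and Ppcs/Zmynd12 out. Depth limits regions with few tags most, and only tags inside called peaks could be counted.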

Other observations

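The 114 joined regions with 3 or more genes had a median of 40.7 CPM per kb and a median width of 3743 bp, where all 1768 joined regions, these included, had 36.5 CPM per kb and 2950.5 bp. None passed in edgeR (1.01% of all regions tested did), 4 did in DESeq2 (2.2% of all), and at an unadjusted p under 0.05 there were 4 higher (5.07% of all) and 11 lower (5.83% of all). The most genes were reached by Tomm6/Gm20517/Usp49/Frs3/Prickle4 (5 genes), which joins a subunit of the mitochondrial import channel to a deubiquitinase and had 82.1 ± 10.5 CPM in d22 and 96.8 ± 9.07 CPM in pbs libraries (SD, n = 6 each; edgeR adjusted p = 0.416). Ip6k1/Gmppb/Rnf123/Amigo3 (4 genes) had 109.9 ± 16.4 CPM in d22 and 101.4 ± 11.2 CPM in pbs libraries (adjusted p = 0.72). Of the chromosomes, 7 held 178 joined regions, 11 held 169 and 2 held 143, while 18 held 25 and X held 37.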
